A study of Mus musculus with 10 samples.

Results

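The lysosome is the acidic compartment in which cells break down proteins, sugar chains and lipids. This account follows 31 lysosomal genes in mouse spleens filled with T-cell acute lymphoblastic leukemia (T-ALL), a cancer of immature T cells. The genes were taken by symbol from a list of lysosomal genes, which was drawn up with earlier results of these data known, and all 31 were found among the 20813 genes of the deposited table. The list holds 8 proteases that myeloid cells are known to express strongly (7 cathepsins and legumain) and 23 other members: glycosidases, lipid and peptide hydrolases, sterol export proteins, membrane proteins and a pair of transcription factors.

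RNA came from 10 leukemic spleens of C57BL/6 mice, 5 per group. All recipients received sub-lethal irradiation and an intravenous injection of T-ALL cells with a conditional Sirt1 knockout allele. Samples of the group labelled Sirt1-deleted are titled TMX, read here as tamoxifen (3 mg per mouse in corn oil, into the peritoneum), and controls are titled VEH, read as the corn oil vehicle. Gene deletion and tamoxifen therefore cannot be told apart in these samples. The labels name neither the recombinase, nor the deleted part of Sirt1, nor the number of primary leukemias, so the p-values below measure the spread between these samples. Spleens were pressed to single cells and red cells were lysed, so host cells of the spleen are part of each sample.

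Normalized counts (reads per gene divided by the authors' DESeq factors) were summed per sample and came to 33660245 to 34471964, and the 31 members made up 0.193% to 0.222% of each total. Sirt1 itself had 1735, 1803, 1796, 1909 and 1810 normalized counts in control replicates 2, 3, 4, 5 and 6, and 1925, 1715, 1817, 1812 and 2097 in replicates 7, 8, 10, 11 and 12 labelled Sirt1-deleted. The groups overlapped and the log2 difference was 0.05 (SE 0.06, limma adjusted p = 0.568). A gene-level value does not show the loss of single exons, and since it did not fall, the group is named by its label throughout. Every list of values below follows the same order of replicates. T lineage marker genes were abundant in every sample. The 12 listed genes summed to 191332 to 200831 normalized counts in controls and 175579 to 190693 in the labelled Sirt1-deleted samples. The largest part of these sums was Tcf7, which averaged 77942 in controls and 58426 in the labelled Sirt1-deleted samples. The lower sums are thus not evidence of a fall across the T lineage list.

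As background, newly made lysosomal enzymes are tagged with mannose 6-phosphate in the Golgi and carried to the lysosome, where a proton pump (the V-ATPase) keeps the pH low. TFEB and TFE3, transcription factors of the MiT family, switch on many lysosomal genes through a short promoter element when the kinase mTORC1 is inactive. Macrophages and neutrophils are rich in lysosomes or related granules, and antigen-presenting cells use cathepsins to trim proteins and the invariant chain for MHC class II. T cells carry the same organelle at lower abundance.

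The lysosomal genes did not move as 1 block. Hexa, Ctss and Ctsh rose between 1.73-fold and 2.27-fold, Cln3, Lgmn and Psap rose less, and Gaa, Lamp2, Glb1, Tpp1, Ctsb, Ctsc, Scarb2 and Ctsa fell. Among these, the mean of Gaa fell by 23.7% and that of Ctsa fell by 11.6%. A gene is called here when its limma adjusted p is under 0.05, with adjustment over the 15276 genes whose mean normalized count was at least 10. All 31 members passed that filter. Of them, 6 were called higher and 8 lower, or 14 in all, while 17 were not called. Over all genes tested, 36.1% were called, 16.8% as higher and 19.4% as lower, so the members' counts are close to what the whole table gives. Control and labelled Sirt1-deleted values were fully separate for 8 of the 31, as they were (no overlap between groups) for 24% of all genes tested. The median log2 difference over the 31 members was -0.07, against -0.00014 over all genes tested. The balance depended on scaling: after upper-quartile rescaling, and likewise after quantile normalization, 7 members were called higher and 5 lower. Without control replicate 2, or without labelled Sirt1-deleted replicate 12, 5 members were called lower.

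**Figure D1:**
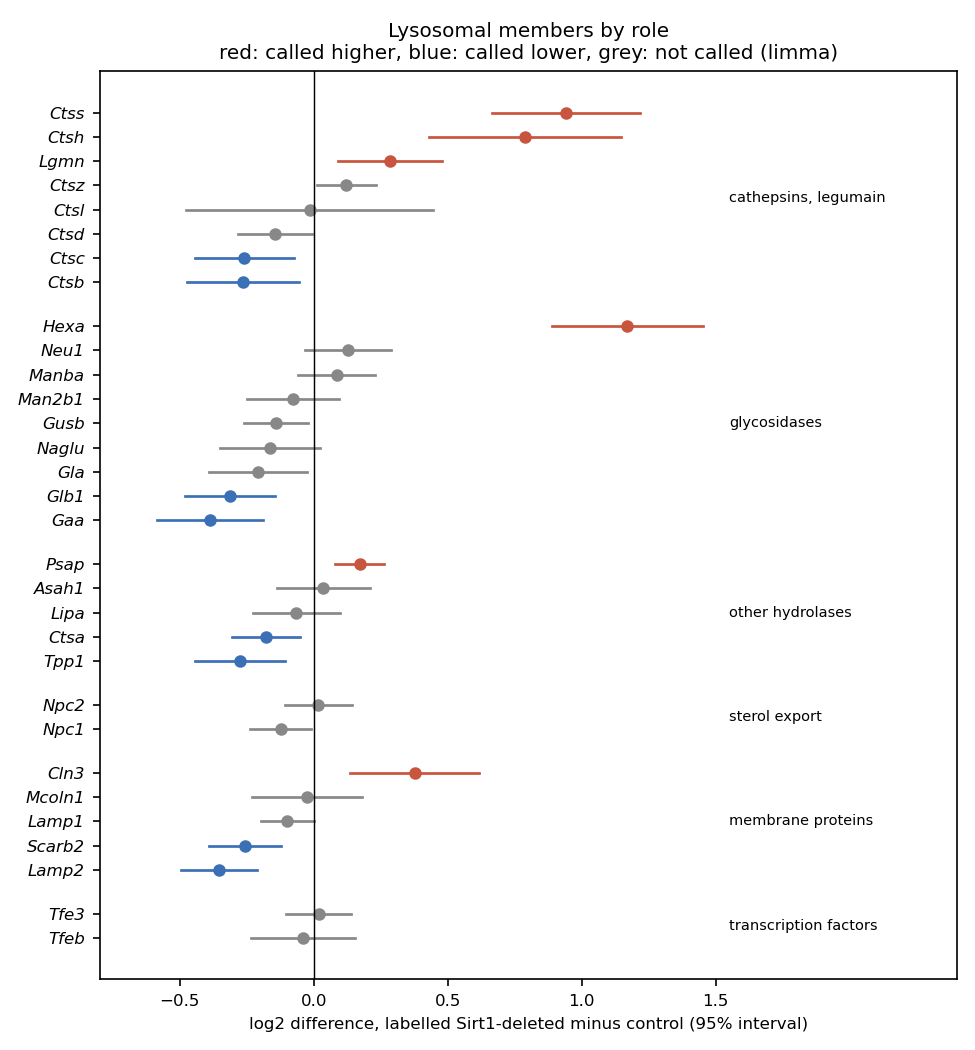
Log2 difference of each member (labelled Sirt1-deleted minus control, on the log2(normalized count + 1) scale) with its 95% interval from limma, grouped by role, n = 5 per group. Hexa at 1.17 and Ctss at 0.94 lie farthest to the right, and Gaa at -0.39 farthest to the left.

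**Figure D2:**
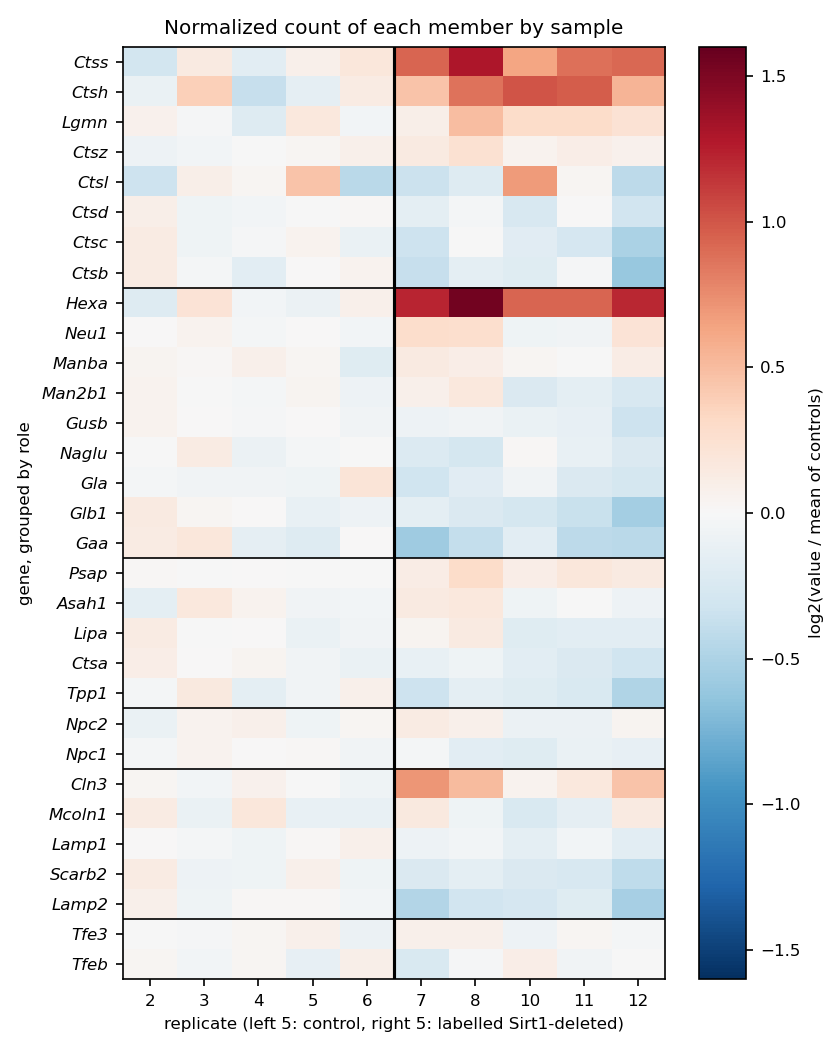
Each member's normalized count in each of the 10 samples, as log2 of its ratio to the control mean, with replicates as columns and genes grouped by role as rows. Hexa, Ctss and Ctsh are red in all 5 labelled Sirt1-deleted samples, while Cln3 and Neu1 are red mainly in replicates 7, 8 and 12.

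Levels can be set between genes only per length. Divided by the length in kilobases of the gene's longest principal transcript (GENCODE M21), Psap was the most abundant member in controls, at 4011 ± 30.4 normalized counts per kilobase (SD, n = 5). It encodes prosaposin, the precursor of small proteins (saposins) that help enzymes reach lipids. Lamp1 (2298 ± 91.3), Ctsz (2284 ± 97.2) and Ctsd (2104 ± 98.7) came next, with Lamp1 and Ctsz within each other's spread. Hexa (89.5 ± 10.4), Ctsh (60.9 ± 12.4) and Ctsl (51.0 ± 12.8) were the 3 lowest. The value of Ctsl rests on a principal transcript of 6168 bases, the longest among the members, and would be higher with a shorter one. The genes with the largest rises were thus low to begin with: per kilobase, Hexa moved from rank 29 to 24 of 31 and Ctss from 22 to 16, while Psap stayed first.

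Myeloid marker genes rose in the group labelled Sirt1-deleted, and their values belong beside every result that follows. Macrophage markers were called higher for 13 of 16 genes, and their summed normalized count was 3106 to 4016 in controls, against 5253 to 7428 in samples labelled Sirt1-deleted. Timd4, among the 13, had a control mean of 9.93, under the filter of 10. It passed the filter through the labelled Sirt1-deleted group, so a rise was built into its being tested. Of 10 monocyte markers, 8 were called higher and 1 lower (Ace), with sums of 2206 to 3237 against 3325 to 8731. The largest part of these sums was Chil3, which averaged 1225 in controls and 3180 in the other group, and whose values overlapped between groups. Of 13 neutrophil markers, 12 were called higher, with sums of 8410 to 11676 against 26960 to 93129. Dendritic cell markers were called higher for 4 of the 9 tested, with sums of 3744 to 5510 against 5933 to 8729. Most of that sum came from Bst2, which averaged 2074 in controls and 4562 in the other group, and Ccr9, which was not called (2459 and 2620). The count of 4 went to 1 under quantile normalization and to 2 without control replicate 2 or labelled Sirt1-deleted replicate 12. None of the 7 B cell markers was called in limma, where 2 had an unadjusted p under 0.05. With array weights or without control replicate 3, 1 was called higher, and without labelled Sirt1-deleted replicate 10, 2 were. Of the 12 T lineage markers, 2 were called higher (Cd3d and Lat) and 3 lower (Cd247, Cd8b1 and Tcf7). Their log2 differences were positive for 5 of the 12. Under upper-quartile rescaling or without labelled Sirt1-deleted replicate 10, 4 were called higher. Over all genes tested 36.1% were called. The share was 81.2% of macrophage, 90% of monocyte, 92.3% of neutrophil, 44.4% of dendritic cell and 41.7% of T lineage markers tested. None of 7 erythroid markers was called, with sums that varied widely within groups (21402 to 78660 in controls, 18756 to 93121 in the other group). None of the 3 NK cell markers tested was called. Of 6 stromal and endothelial markers tested, 1 was called lower (Pdgfrb), with list sums of 5102 to 6110 against 4543 to 5095. Most of these sums came from Pecam1, which was not called (3252 and 3192), and Pdgfrb (2170 and 1459). These lower sums are therefore not evidence of a fall across that list. No marker of these lists was at 0 in all samples. In a bulk sample, fewer cells of a type and less RNA per cell cannot be told apart. The part of these cells in the members' differences was not tested.

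**Figure D3:**
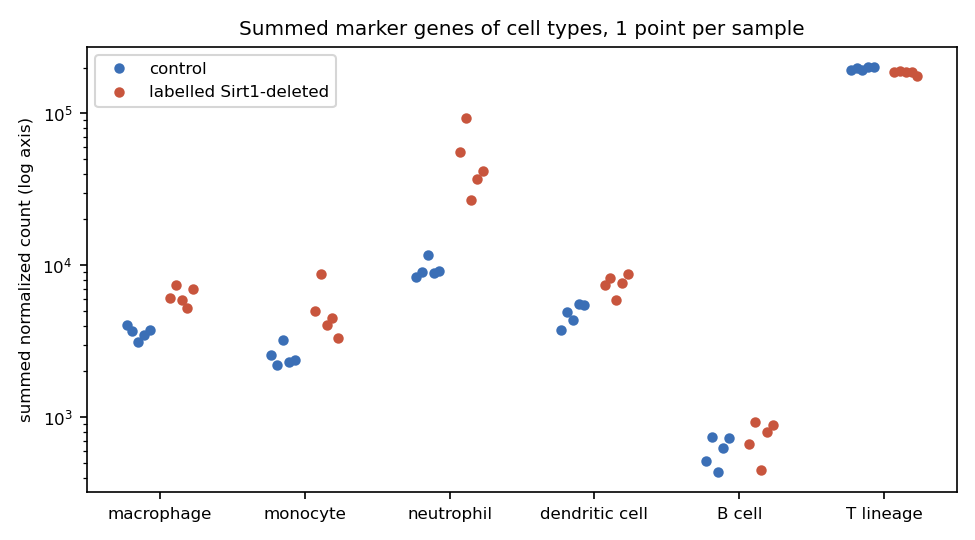
Summed normalized counts of marker genes for 6 cell types on a log axis, 1 point per sample, blue for control and red for labelled Sirt1-deleted. Macrophage, monocyte, neutrophil and dendritic cell sums do not overlap between groups, with neutrophil sums of 8410 to 11676 against 26960 to 93129. The largest part of the monocyte sums is Chil3, whose own values overlap between groups. T lineage sums do not overlap either but are lower in the labelled Sirt1-deleted samples (191332 to 200831 against 175579 to 190693). Their largest part is Tcf7, which averaged 77942 in controls and 58426 in the other group. B cell sums overlap.

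Among the cathepsins and legumain, Ctss, Ctsh and Lgmn were called higher and Ctsc and Ctsb lower, and Ctsz, Ctsl and Ctsd were not called. Their median log2 difference was 0.05, and that of the other 23 members was -0.08. Ctsa, which encodes cathepsin A and was called lower (log2 difference -0.18), was counted among the other 23. These medians depend on that placement. The other 23 had 3 called higher and 6 lower. The difference between these groups of genes was not tested. The 2 lower calls of Ctsb and Ctsc went to 0 under both rescalings, and also without control replicate 2 or 5 or labelled Sirt1-deleted replicate 7 or 12. They went to 1 without control replicate 3, 4 or 6.

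Ctss encodes cathepsin S, the protease that removes the invariant chain from MHC class II in antigen-presenting cells, and lies on chromosome 3 (95526786 to 95556403, GRCm38). Its normalized counts were 252, 339, 273, 326 and 349 in controls and 584, 756, 476, 567 and 581 in the labelled Sirt1-deleted samples. Every labelled Sirt1-deleted sample lay above every control, with replicate 8 highest. Means were 307 ± 42.9 and 593 ± 102 (SD, n = 5), a 1.93-fold rise (log2 difference 0.94, SE 0.13, limma adjusted p = 5.29e-04). Ctsh, on chromosome 9 (90054152 to 90076089), encodes cathepsin H, an aminopeptidase. It had 91.4, 128, 76.3, 88.9 and 108 normalized counts in controls and 135, 180, 198, 194 and 144 in the labelled Sirt1-deleted samples. The groups did not overlap, and unlike for Ctss the highest values were in replicates 10 and 11. The fold was 1.73 (log2 difference 0.79, SE 0.17, limma adjusted p = 0.00390).

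Lgmn encodes legumain, which cuts after asparagine and matures several cathepsins, and lies on chromosome 12. It measured 547, 514, 454, 585 and 508 normalized counts in controls and 555, 733, 639, 637 and 612 in the labelled Sirt1-deleted samples. Replicate 7 fell inside the control range. The log2 difference was 0.28 (limma adjusted p = 0.0267), and the call was lost, at adjusted p up to 0.0652, without control replicate 3, 4 or 6 or labelled Sirt1-deleted replicate 8.

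Ctsb and Ctsc moved the other way. Ctsb encodes cathepsin B, a cysteine protease found in most cells, and had 9028, 8072, 7333, 8331 and 8596 normalized counts in controls and 6424, 7444, 7204, 8200 and 5430 in the labelled Sirt1-deleted samples. Replicate 12 was lowest and replicates 8 and 11 lay within the control range (log2 difference -0.26, limma adjusted p = 0.0485). Ctsc encodes cathepsin C, which activates the serine proteases of granules in neutrophils and cytotoxic cells. It had 1830, 1591, 1647, 1734 and 1546 against 1325, 1660, 1469, 1382 and 1172, with replicate 8 among the controls (log2 difference -0.26, limma adjusted p = 0.0315). Both calls were lost under both rescalings and in 6 fits each that left out 1 sample. For Ctsb these were control replicates 2, 3, 5 and 6 and labelled Sirt1-deleted replicates 7 and 12 (adjusted p up to 0.114). For Ctsc they were control replicates 2, 4 and 5 and labelled Sirt1-deleted replicates 7, 11 and 12 (adjusted p up to 0.0811). The direction of both stayed negative in every fit run.

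The remaining 3 proteases were not called. Ctsd, the aspartic protease of the lysosome, averaged 4475 ± 210 in controls and 4057 ± 377 in the other group (SD, n = 5, limma adjusted p = 0.0932). Ctsz, a carboxypeptidase, averaged 3291 ± 140 and 3581 ± 192 (log2 difference 0.12, limma adjusted p = 0.0766), and was called higher under both rescalings. Ctsl, encoding cathepsin L, ranged from 233 to 431 in controls and from 235 to 504 in the labelled Sirt1-deleted samples. Its 95% interval for the log2 difference ran from -0.48 to 0.45, so changes within that interval, in either direction, remain compatible with these values.

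Of the 9 glycosidases, which remove sugars from glycolipids, glycoproteins and glycogen, Hexa was called higher, Gaa and Glb1 lower, and 6 were not called. Hexa encodes a lysosomal hexosaminidase chain, part of the enzyme that degrades GM2 ganglioside and whose loss causes Tay-Sachs disease in people. The gene lies on chromosome 9 (59539540 to 59565109). Normalized counts were 155, 208, 174, 167 and 190 in controls and 415, 522, 340, 341 and 413 in the labelled Sirt1-deleted samples. The lowest labelled Sirt1-deleted sample was well above the highest control. The 2.27-fold rise (179 ± 20.8 to 406 ± 74.5, SD, n = 5) gave a log2 difference of 1.17 (SE 0.13, limma adjusted p = 1.77e-04), the largest among the 31 members. Tmem202, whose exons overlap those of Hexa on the opposite strand, averaged 4.45 and 9.63 normalized counts. Gm2a, which encodes the activator that presents GM2 to the enzyme and is not among the 31 members, was not called (limma adjusted p = 0.371).

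**Figure D4:**
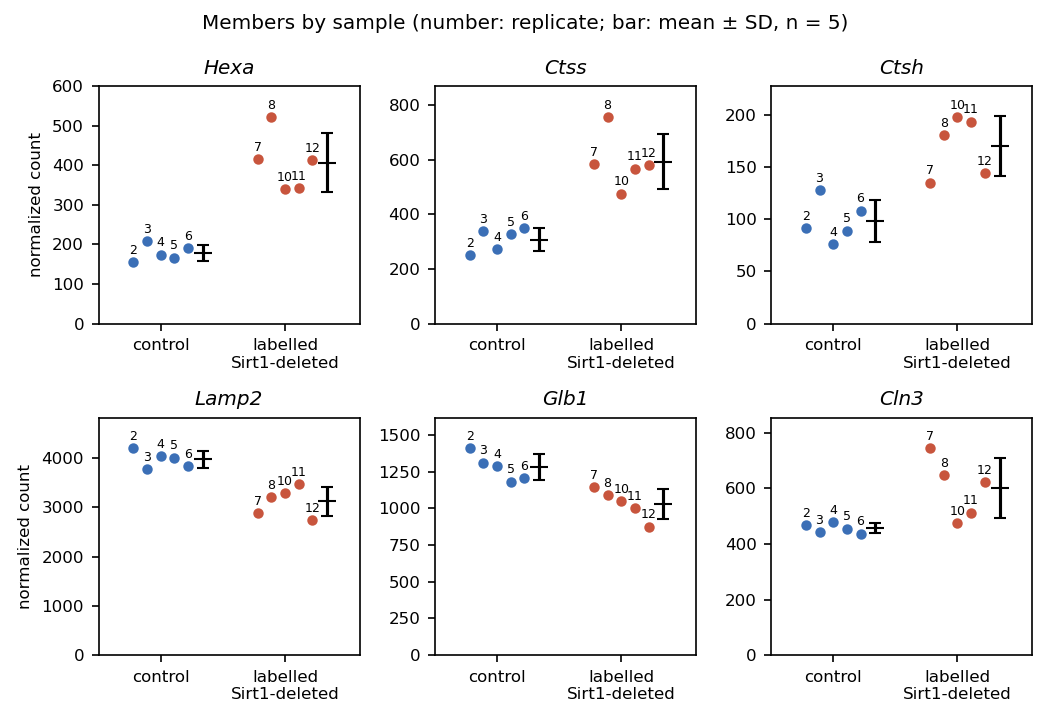
Normalized counts of 6 members by sample on linear axes from 0, with replicate numbers beside points and the mean ± SD of 5 samples as a black bar. Hexa, Ctss, Ctsh, Lamp2 and Glb1 separate the groups fully, while replicate 10 of Cln3, at 474, lies inside the control range.

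Gaa encodes acid alpha-glucosidase, which breaks down glycogen in the lysosome. It had 1269, 1311, 1049, 1007 and 1170 normalized counts in controls and 780, 893, 1029, 869 and 862 in the labelled Sirt1-deleted samples. Labelled Sirt1-deleted replicate 10 alone lay within the control range, and the mean fell by 23.7% (log2 difference -0.39, SE 0.09, limma adjusted p = 0.00669). Glb1 encodes beta-galactosidase, the enzyme behind the common senescence stain. It had 1409, 1312, 1288, 1183 and 1208 against 1147, 1089, 1051, 1000 and 875, with no overlap (log2 difference -0.31, SE 0.08, limma adjusted p = 0.00886). Exons of Tmppe overlap those of Glb1 on the same strand, so reads could be split between them; Tmppe averaged 459 in controls and 317 in the labelled Sirt1-deleted samples.

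Neu1, the sialidase that works in a complex with beta-galactosidase and the product of Ctsa, differed among the labelled Sirt1-deleted samples. It had 2501, 2593, 2444, 2504 and 2419 normalized counts in controls and 3039, 2992, 2368, 2403 and 2889 in the other group. Replicates 7, 8 and 12 were above every control and replicates 10 and 11 below all of them, and the gene was not called (limma adjusted p = 0.196). Manba and Man2b1, which encode mannosidases, were not called (log2 differences 0.08 and -0.08). Gusb (beta-glucuronidase), Gla (alpha-galactosidase A) and Naglu (a heparan sulfate enzyme) had log2 differences of -0.14, -0.21 and -0.16 and adjusted p of 0.0604, 0.0712 and 0.156 in limma. For Gusb the groups did not overlap (3580 to 3841 against 2948 to 3552), and the exact rank-sum test called it.

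Among the 5 other hydrolases and activators, Psap was called higher and Tpp1 and Ctsa lower, and Lipa and Asah1 were not called. Psap had 10772, 10644, 10702, 10580 and 10587 normalized counts in controls and 11612, 13076, 11506, 12046 and 11797 in the labelled Sirt1-deleted samples. The control values were tight (SD 80.9), and every labelled Sirt1-deleted sample exceeded them, by 12.7% on average (log2 difference 0.17, SE 0.04, limma adjusted p = 0.00907). Tpp1, a peptidase that removes tripeptides, had 1421, 1614, 1302, 1394 and 1532 against 1157, 1304, 1273, 1229 and 1037. Replicate 8 lay just above the lowest control (log2 difference -0.28, limma adjusted p = 0.0151). Ctsa encodes cathepsin A, the serine carboxypeptidase that protects Neu1 and Glb1 proteins. It had 2898, 2716, 2782, 2599 and 2510 against 2497, 2570, 2393, 2299 and 2175 (log2 difference -0.18, limma adjusted p = 0.0306). Only replicate 8 reached into the control range. The call of Ctsa was lost under both rescalings and, at adjusted p up to 0.0775, without control replicate 2, 3 or 4 or labelled Sirt1-deleted replicate 11 or 12. Lipa, the acid lipase of cholesteryl esters, had a log2 difference of -0.07 (95% interval -0.23 to 0.10). Asah1, the acid ceramidase, had 0.03 (95% interval -0.14 to 0.21).

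Sterol export gave no call. Npc2 binds cholesterol inside the lysosome and hands it to the membrane protein Npc1. Npc2 averaged 5711 ± 314 and 5782 ± 404 normalized counts (SD, n = 5), with a log2 difference of 0.02 and an interval of -0.11 to 0.14. Npc1 averaged 1154 ± 34.2 and 1059 ± 44.7 (log2 difference -0.12, limma adjusted p = 0.0826).

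Of the 5 membrane proteins, Cln3 was called higher, Lamp2 and Scarb2 lower, and Lamp1 and Mcoln1 were not called. Lamp2 encodes a main glycoprotein of the lysosomal membrane, with a splice form that serves chaperone-mediated autophagy, and lies on chromosome X (38401357 to 38456454). It had 4198, 3783, 4044, 4014 and 3843 normalized counts in controls and 2885, 3214, 3297, 3477 and 2745 in the labelled Sirt1-deleted samples. No labelled Sirt1-deleted sample reached the lowest control, and the mean fell by 21.4% (log2 difference -0.35, SE 0.07, limma adjusted p = 0.00217). Splice forms are not resolved in a gene-level value. Lamp1, its close relative, averaged 5123 ± 203 and 4784 ± 200 (SD, n = 5; log2 difference -0.10, limma adjusted p = 0.109). Scarb2 encodes LIMP-2, which carries glucocerebrosidase to the lysosome. It had 2792, 2426, 2431, 2698 and 2436 against 2170, 2286, 2169, 2148 and 1921, with no overlap (log2 difference -0.26, SE 0.06, limma adjusted p = 0.00732).

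Cln3, the gene of a juvenile form of Batten disease, had 467, 443, 480, 456 and 437 normalized counts in controls and 744, 647, 474, 513 and 624 in the labelled Sirt1-deleted samples. Replicates 7, 8 and 12 were far above the controls, replicate 11 was slightly above and replicate 10 was within their range (log2 difference 0.38, SE 0.11, limma adjusted p = 0.0194). Apobr overlaps Cln3 on the opposite strand and averaged 86.8 and 207 normalized counts. Whether the authors' counting used strand is not given in the sources used here, so reads of such pairs may be mixed. Exons of 10 members overlap another gene on either strand, among them 5 of the 14 called members (Cln3, Ctsa, Ctsb, Glb1 and Hexa). Mcoln1, the calcium channel TRPML1, averaged 930 ± 96.0 and 916 ± 113 (SD, n = 5).

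Neither transcription factor of the list was called. Tfeb had 289, 274, 289, 258 and 302 normalized counts in controls and 239, 278, 304, 272 and 281 in the labelled Sirt1-deleted samples (log2 difference -0.04, 95% interval -0.24 to 0.15). Tfe3 had 1268, 1249, 1302, 1346 and 1187 against 1340, 1345, 1204, 1296 and 1246 (log2 difference 0.02, 95% interval -0.10 to 0.14). Both factors act mainly by moving between cytoplasm and nucleus, which RNA levels do not measure.

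Promoters of the members were searched for the element that these factors bind, since members with and without it can then be set beside their calls. The letters CACGTG and the longer GTCACGTG, which contains CACGTG, were searched on both strands in RefSeq promoters of GRCm38.p6 (250 bases before to 50 after each start). Promoters were found for 27 of the 31 members. Of these, 11 held CACGTG and 9 held GTCACGTG, where 8.09% and 2.55% of the 27025 genes in the promoter table did. The 9 with GTCACGTG were 2 of the 5 members called higher (Cln3 and Lgmn), 2 of the 7 called lower (Ctsa and Glb1) and 5 of the 15 not called (Ctsd, Gla, Lamp1, Mcoln1 and Naglu). The element was thus found on both sides of the comparison, and the promoters of Hexa and Ctss did not hold these letters. The windows below show it in the 4 called members and in Mcoln1 for contrast. Each is 30 bases on the gene's strand, 5′ to 3′, with the match in capitals.
Cln3, called higher, chr7:126583341-126583370, minus strand: tcacgggtactGTCACGTGacccccaacct
Lgmn, called higher, chr12:102439125-102439154, minus strand: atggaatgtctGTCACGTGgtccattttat
Ctsa, called lower, chr2:164833748-164833777, plus strand: atgagcaaactGTCACGTGatgcagatgct
Glb1, called lower, chr9:114401017-114401046, plus strand: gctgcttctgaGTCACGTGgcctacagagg
Mcoln1, not called, chr8:3500435-3500464, plus strand: gggtcgcgcttGTCACGTGttcagttcagg

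The matches begin 123 bases before the start in Cln3, 51 in Lgmn, 14 in Ctsa, 50 in Glb1 and 73 in Mcoln1. Cln3, Ctsa and Mcoln1 each hold a further match on the other strand, which in Cln3 overlaps the one shown. A match describes letters and is not evidence of binding. The start used for Lgmn in the RefSeq table was not found within its GENCODE M21 transcripts.

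Other genes of the organelle were taken from companion lists made by function. Over all genes tested, 16.8% were called higher and 19.4% lower, or 36.1% in all. Of the further enzymes, further membrane genes and sorting genes below, 29.2%, 38.9% and 33.3% were called, which is close to that share. For V-ATPase subunits, MiT factors with their regulators, and inhibitors the shares were 58.8%, 50% and 66.7%. Of 24 further lysosomal enzymes, 3 were called higher and 4 lower (median log2 difference -0.05). The lower calls went to 2 without control replicate 2 or 4 or labelled Sirt1-deleted replicate 7 or 12. Ctsk, the bone-resorbing protease cathepsin K, had 10.6 to 24.1 normalized counts in controls and 25.6 to 41.9 in the labelled Sirt1-deleted samples (log2 difference 1.13, limma adjusted p = 0.00508). Fuca1, a fucosidase, rose by 0.21 on the log2 scale (limma adjusted p = 0.0137). Ctsf, which encodes cathepsin F, had 51.4 to 122 in controls and 16.7 to 69.1 in the other group (log2 difference -1.45, limma adjusted p = 0.0128). Among 18 further membrane genes, 3 were called higher and 4 lower (median -0.04), or 2 lower without control replicate 2. Cd63, a tetraspanin of granules and lysosomes, had 56.4 to 84.4 in controls and 123 to 373 in the other group (log2 difference 1.68, limma adjusted p = 6.08e-04). Cd68, a lysosomal glycoprotein used as a macrophage marker, had 192 to 227 and 288 to 390 (log2 difference 0.63, limma adjusted p = 8.97e-04). Tpcn1, a cation channel of endolysosomes, had 3960 to 5069 and 2540 to 3326 (log2 difference -0.53, limma adjusted p = 8.97e-04).

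**Figure D5:**
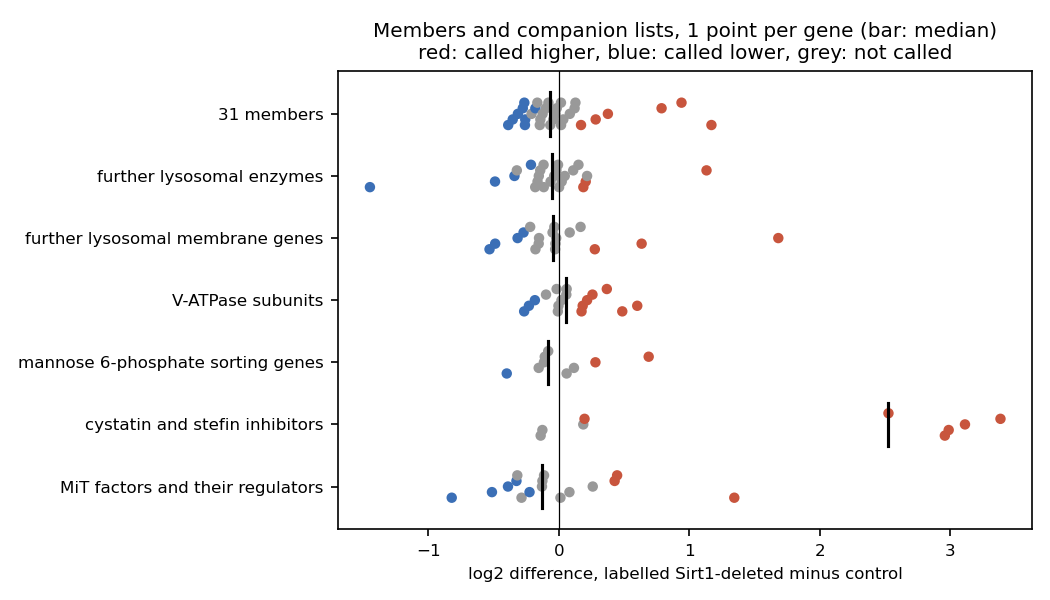
Log2 difference of each gene tested (labelled Sirt1-deleted minus control) for the 31 members and 6 companion lists, with the median as a black bar and colour for the limma call. Most lists spread on both sides of 0, and 5 stefin genes of the inhibitor list lie above 2.5. Those 5 passed the filter only through the labelled Sirt1-deleted group.

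V-ATPase subunits were called higher for 7 of 17 and lower for 3 (median 0.06). The lower calls went to 0 under upper-quartile rescaling and to 1 without control replicate 2, 3, 5 or 6 or labelled Sirt1-deleted replicate 7, 8 or 12. Tcirg1 and Atp6v0b, subunits of the membrane sector, rose by 0.60 and 0.49 on the log2 scale (limma adjusted p = 9.06e-04 and 0.00252). Atp6v1a, the catalytic subunit, had -0.27 (limma adjusted p = 0.0403). Its call was lost under both rescalings and, at adjusted p up to 0.0999, in 8 of the 10 fits without 1 sample. These were all but those without labelled Sirt1-deleted replicates 10 and 11. Of 9 genes listed for mannose 6-phosphate tagging or for sorting to the lysosome, 2 were called higher and 1 lower. Without labelled Sirt1-deleted replicate 10, 2 were called lower. Sort1 (the sorting receptor sortilin) and Gnptg rose by 0.69 and 0.28. Gnptab, which encodes the catalytic subunits of the phosphotransferase whose gamma subunit is Gnptg, had 2349 to 2803 in controls and 1614 to 2253 in the other group (log2 difference -0.40, limma adjusted p = 0.00379).

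Among MiT factors and regulators of mTORC1 at the lysosome, 3 of 16 were called higher and 5 lower (median -0.13). Tfec, a MiT factor restricted largely to macrophages, had 5.51 to 13.4 normalized counts in controls and 14.0 to 71.0 in the labelled Sirt1-deleted samples (log2 difference 1.34, limma adjusted p = 0.0235). The control mean of Tfec, 9.95, was just under the filter of 10, which it passed through the labelled Sirt1-deleted group. Without control replicate 4 or 5 its adjusted p rose to up to 0.0549, over the threshold, and under quantile normalization the call was lost too. Lamtor4, a subunit of the scaffold that anchors mTORC1, rose by 0.45 (limma adjusted p = 0.00452). Rragd, a Rag GTPase that is itself a known TFEB target, had 743 to 876 in controls and 384 to 578 in the other group (log2 difference -0.82, limma adjusted p = 5.78e-04).

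Among natural inhibitors of cathepsins, 5 stefin genes rose by 2.53 or more on the log2 scale, while the cystatins Cst3, Cst6 and Cst7 were not called. Of the 9 cystatin and stefin genes tested, 6 were called higher and none lower in limma (median 2.53). The 5 stefin genes had control means of 1.22 to 5.63, under the filter of 10. They passed it only through the labelled Sirt1-deleted samples, so a rise was built into their being tested. The median is the value of 1 of them (Stfa1), so neither it nor the 6 calls is evidence of a rise of the list. With a minimum mean of 50, 1 was called, since the 5 stefin genes were too low to be tested. Those with the largest log2 differences were BC100530 at 3.38 and Stfa2 at 3.11 (limma adjusted p = 0.00897 and 0.0126). BC100530 had 0.927 to 7.43 normalized counts in controls and 96.7, 200, 10.2, 7.50 and 143 in the labelled Sirt1-deleted samples. Stfa2 had 0.903 to 3.87 in controls and 49.6, 85.7, 2.14, 5.90 and 60.0 in the other group, so that replicates 10 and 11 were far below replicates 7, 8 and 12 in both genes. Stefin genes are near-identical neighbours known from neutrophils, and their reads may be split among copies. Within that group, neutrophil marker sums were lowest in replicates 10 and 11, at 26960 and 37167, and a link was not tested. The general inhibitors Cstb and Cst3 averaged 991 against 1135 (called) and 1312 against 1509 (not called).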

How the data were processed

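Values are normalized counts per gene, a depth-scaled signal that the authors deposited for 10 samples. Per the submitters' processing notes, kallisto 0.44.0, DESeq and mm10 were used; the annotation, the gene filter and any use of strand are not given in the sources used here. Low values were not whole multiples of 1 read (71.4% to 74.3% lay within 0.1 reads), so reads were not recovered and the planned edgeR and DESeq2 fits were not run. Groups were compared with limma 3.58.1 in R 4.3.3 on log2(normalized count + 1), with a mean-variance trend, over 15276 genes with a mean of at least 10 and Benjamini-Hochberg adjustment (threshold 0.05). The method was tested on simulated data. That simulation used the same spread setting for all genes and far fewer changed genes than were called here, so it does not test these calls. Differences are on that log2 scale. Where nothing says that samples came from separate leukemias, p-values measure only the spread between samples, which may not include differences between leukemias. The members and lists were chosen with earlier results of these data known. All 31 members are accounted for by role. Called members are given in every sample and uncalled ones by mean or difference. Each companion list is given by its called genes with the 2 largest rises and the largest fall. Gm2a, Cstb, Cst3, Cst6, Cst7, Bst2, Ccr9, Tcf7, Timd4, Chil3 and Pecam1 were added after their values were seen. A companion gene and 1 of 3 within-sample ratios are not reported here. Coordinates and lengths are from GENCODE M21 (GRCm38, the same assembly as mm10). Lengths were switched from the longest coding to the longest principal transcript after the length of Ctsl was seen. Other scalings, filters, pseudocounts, tests and the omission of each sample were tried.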

Additional observations from a re-analysis of the deposited data

Results flagged for a closer look

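In 64 sets of 5 samples (31 members and Sirt1 in each group), 3 held a sample whose gap to the others exceeded Dixon's 95% critical value of 0.71 as a share of the range. Chance flags about 1 set in 20, or 3.2 of 64. Gla, which encodes alpha-galactosidase A, was high in control replicate 6, with a gap of 0.896 of the range. Gusb, which encodes beta-glucuronidase, was low in labelled Sirt1-deleted replicate 12 (2948 against 3399 to 3552 in the others), with a gap of 0.747. Manba, which encodes beta-mannosidase, was low in control replicate 6 (688), with a gap of 0.736. None of these 3 genes was called in limma.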

How the results depend on the processing

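No paired analysis was possible because control and labelled Sirt1-deleted samples carry different numbers in their titles. Count models (edgeR, DESeq2) need reads, which could not be recovered, and were not run. Of the 14 called members, 7 (Ctss, Ctsh, Hexa, Glb1, Psap, Lamp2 and Scarb2) kept their call in all 10 alternatives and all 10 fits without 1 sample, and none of the 14 changed sign. Members called lower numbered 8, against 5 under upper-quartile rescaling, 5 under quantile normalization, 5 without the trend and 4 in the exact rank-sum test; the cause was not tested. Leaving out 1 sample gave 5 to 9 called lower and 5 to 7 called higher. Apart from Ctsl, which changed sign in 6 of the 10 fits without 1 sample, uncalled members that crossed 0 did so close to it. Under upper-quartile rescaling the log2 differences were 0.0448 (Ctsl), 0.0353 (Mcoln1) and 0.0188 (Tfeb). The log2 difference of Mcoln1 was 0.0263 after quantile normalization, and array weights gave 0.0274 (Mcoln1), 0.000324 (Man2b1) and 0.0108 (Lipa). Without 1 sample the ranges were -0.197 to 0.107 (Ctsl), -0.0717 to 0.0287 (Mcoln1), -0.0782 to 0.00825 (Tfeb), -0.00231 to 0.0791 (Asah1), -0.0126 to 0.0432 (Npc2) and -0.00651 to 0.0413 (Tfe3). V-ATPase genes called lower went from 3 to 0 under upper-quartile rescaling and to 1 under quantile normalization; inhibitors called higher went from 6 to 1 with a minimum mean of 50 and to 3 in the rank-sum test. In the rank-sum test, which can call only genes whose groups do not overlap, Gaa, Tpp1, Cln3 and Lgmn had adjusted p = 0.0512 (exact test), further enzymes and further membrane genes called lower went from 4 to 2 each, dendritic cell markers called higher went from 4 to 1, and Ctsf, Gnptg and Stfa2 lost their calls. T lineage markers called higher went from 2 to 4 under upper-quartile rescaling and with array weights.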

Other observations

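Ratios between genes within a sample do not depend on scaling between samples. Such ratios were chosen after the values were seen, and p-values were adjusted over the 3 computed. That adjustment leaves out the other pairs that could have been picked. Since the difference of each gene was known when the pairs were picked, these p-values only describe the values and are not evidence of a difference. Ctss over Ctsb was 0.0373 ± 0.00559 in controls and 0.0869 ± 0.0186 in samples labelled Sirt1-deleted (SD, n = 5, exact two-sided permutation p = 0.00794, adjusted 0.0119). That p is the smallest this design can give. Lamp2 over Lamp1 was 0.777 ± 0.0490 and 0.653 ± 0.0557 (SD, n = 5, exact permutation p = 0.0159, adjusted 0.0159), and its groups overlapped.

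Among the 8 members called lower, 7 had their lowest value in labelled Sirt1-deleted replicate 12. Among the 6 called higher, replicate 8 was the highest in 4, and replicate 10 was the least raised in 4. Within the labelled Sirt1-deleted group, macrophage, monocyte and neutrophil marker sums were highest in replicate 8, and the dendritic cell sum in replicate 12. The lowest macrophage sum was in replicate 11, the lowest monocyte sum in 12, and the lowest neutrophil and dendritic cell sums in 10. Chil3, the largest part of the monocyte sum, had 6162 normalized counts in replicate 8 and 1742 in replicate 12. A link between these sums and the members was not tested.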
